A study of Mus musculus with 6 samples.

Results

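The genes described are 10 markers of meningeal and vascular fibroblasts, chosen by name: Dcn, Lum, Col1a1, Col1a2, Col3a1, Slc6a13, Ptgds, Igf2, Aldh1a2 and Slc22a6. They are 10 of the 46983 genes in the count tables, and all 10 passed the filter on low counts that left 16851 genes for testing. They were measured by RNA sequencing of whole cerebellum from 6 C57BL/6J mice at postnatal day 60, each library from its own animal. The 3 animals labelled WT carried Tie2-Cre and 1 floxed Slc7a5 allele (Tie2-Cre Slc7a5 fl/+), and the 3 labelled Slc7a5-KO carried Tie2-Cre and both alleles floxed (Tie2-Cre Slc7a5 fl/fl). All 6 animals thus carried the Cre transgene, and no animal without a floxed allele was included. Slc7a5 encodes LAT1, a carrier of large neutral amino acids, and the title of the series places the question at the blood-brain barrier.

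The meninges are the membranes that cover the brain. Their fibroblasts lay down a collagen-rich matrix, make retinoic acid and carry transporters that help to separate cerebrospinal fluid from blood. Related fibroblasts lie around larger vessels and in the stroma of the choroid plexus. The Tie2 promoter is active in endothelial and blood lineages and not, as commonly understood, in fibroblasts, so these genes report mainly on cells next to the vessels in which the recombinase acts. A cerebellar dissection holds few such cells, and several of the 10 genes have other sources too: Ptgds is also made by oligodendrocytes and Igf2 by choroid plexus epithelium. In bulk tissue, fewer cells of a type and less RNA per cell cannot be told apart.

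Gene reads per library ran from 13.4 to 34.2 M (mega) reads, with the lowest total in Slc7a5-KO replicate 3. The tissue label was borne out by high levels of cerebellar neuron genes, with 369 to 623 CPM (TMM-scaled counts per M reads) for the Purkinje cell gene Pcp2 and 442 to 1076 CPM for the granule cell gene Gabra6. Slc7a5 itself had 72.0, 66.3 and 43.2 CPM in WT against 164, 59.4 and 118 CPM in animals labelled Slc7a5-KO (log2 fold change 0.91 ± 0.42, edgeR adjusted p = 0.84). Values of single animals are in the order of replicates 1 to 3 throughout. Without Slc7a5-KO replicate 2 the value for Slc7a5 was 1.22 (edgeR adjusted p = 0.010, and up to 1.00 over all alternatives). The targeted transcript was therefore not lower under the Slc7a5-KO label, and every direction given here follows the labels. Xist and Y-linked genes marked 1 female and 2 males in WT, and 2 females and 1 male, replicate 2, in Slc7a5-KO. Slc7a5-KO replicate 2 stood apart in its choroid plexus markers. The summed level of 14 such genes was 51.0 CPM in that library and 2449 to 5880 CPM in the other 5. Values without it are given for the leading results and where it moves a median of a list most.

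None of the 10 genes differed between the groups at an adjusted p of 0.05 (edgeR quasi-likelihood test, Benjamini-Hochberg over 16851 genes). Over all genes tested, 0.0475% passed, all of them higher under the Slc7a5-KO label. At an unadjusted p under 0.05, edgeR gave 0 of the 10 against 6.22% of all genes, DESeq2 gave 1 (6.64% of all genes) and limma-voom 2 (6.01%). With a sex term edgeR gave 3 of the 10 (Dcn, Lum and Ptgds) against 8.31% of all genes. Slc7a5-KO replicate 2, the only male of its group, weighs more in that fit than in the one without the term. In 0 of the 10 did the animals of the groups separate without overlap, against 11.5% of all genes. The median log2 fold change of the 10 was -0.09, beside 0.0022 over all genes tested, with 4 genes above 0 and 6 below.

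Levels were compared between genes per kilobase (kb) of the principal transcript of each, over the 6 animals. Ptgds, the prostaglandin D synthase secreted into cerebrospinal fluid, was by far the most abundant at 3113 ± 810 CPM per kb (SD, n = 6). Igf2, a secreted growth factor, followed at 51.2 ± 15.5, and Dcn, the small proteoglycan decorin, at 28.5 ± 11.4 CPM per kb. Slc6a13, a carrier of GABA and taurine, came next at 12.4 ± 3.09 CPM per kb, then Aldh1a2, which makes retinoic acid, at 7.42 ± 2.26, and Lum, the proteoglycan lumican, at 5.86 ± 2.87. The lowest levels were those of Col1a2 (4.49 ± 0.86), Slc22a6, an organic anion carrier (2.94 ± 0.71), Col1a1 (1.32 ± 0.31) and Col3a1 (1.31 ± 0.36 CPM per kb). In this order the range of Ptgds lay wholly above that of Igf2, that of Col1a2 above that of Slc22a6, and that of Slc22a6 above that of Col1a1. All other neighbours overlapped in range. Within animals Igf2 was above Dcn, Dcn above Slc6a13 and Slc6a13 above Aldh1a2 in 6 of 6. Aldh1a2 exceeded Lum in 5 and Lum exceeded Col1a2 in 4, while Col1a1 exceeded Col3a1 in 3 of 6. The order depended on the length used. With all exons merged, Dcn was at 8.58 CPM per kb, below Slc6a13 at 9.56. Col1a2, with 12426 bases in place of 5348, was at 1.93 CPM per kb, below Slc22a6 at 2.94.

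Among the matrix genes of the 10, decorin and lumican had the largest differences between group means. Both are small leucine-rich proteoglycans that bind collagen fibrils, and their genes are neighbours on chromosome 10 of GRCm38 (Dcn at 97479609 to 97518143 and Lum at 97565128 to 97572703, both plus strand), 47.0 kb apart. Dcn had 79.1, 60.8 and 43.6 CPM in WT against 58.1, 22.1 and 37.0 CPM in animals labelled Slc7a5-KO. The lowest values of Dcn were those of Slc7a5-KO replicates 2 and 3, while replicate 1 lay among the WT animals, so the groups overlapped. Its log2 fold change was -0.65 ± 0.37 (95% interval -1.54 to 0.24, edgeR adjusted p = 0.88).

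Lum stood at 18.8, 24.1 and 12.9 CPM in WT against 16.4, 4.04 and 9.92 CPM in animals labelled Slc7a5-KO. Here too Slc7a5-KO replicates 2 and 3 were lowest and replicate 1 lay within the WT range. The log2 fold change was -0.87 ± 0.43 (95% interval -1.82 to 0.07, edgeR adjusted p = 0.82), with an unadjusted p of 0.067, the smallest among the 10 genes. Lum in Slc7a5-KO replicate 2 rested on 108 reads, whose 95% Poisson interval of 3.31 to 4.87 CPM covers counting error only and does not reach the other libraries. Without that library the log2 difference was -0.36 for Dcn and -0.49 for Lum. Without Slc7a5-KO replicate 1 it was -1.06 for Dcn and -1.44 for Lum (edgeR adjusted p = 0.22 and 0.21). Over all alternatives the adjusted p ran from 0.21 to 1.00 for Dcn and from 0.13 to 1.00 for Lum.

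Type I collagen, the main fibril of the meninges, is built from the products of Col1a1 (chromosome 11, 94936224 to 94953042, plus strand) and Col1a2 (chromosome 6, 4504814 to 4541544, plus strand), and type III collagen from Col3a1 (chromosome 1, 45311538 to 45349706, plus strand). Col1a1 stood at 8.56, 6.75 and 4.56 CPM in WT against 9.16, 9.46 and 8.53 CPM in animals labelled Slc7a5-KO. WT replicate 1 lay just above the lowest Slc7a5-KO library, and the Slc7a5-KO animals were close to each other, with a coefficient of variation of 5.24% against 30.2% in WT. The Slc7a5-KO values rested on 296, 253 and 116 reads. The 95% Poisson interval of replicate 3, 7.05 to 10.2 CPM, covers the values of replicates 1 and 2, so their closeness lies within counting error. The difference in spread between the groups was not tested. The log2 fold change was 0.45 ± 0.30 (95% interval -0.18 to 1.08, edgeR adjusted p = 0.89).

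Col1a2 stood at 30.8, 24.4 and 20.0 CPM in WT against 20.6, 20.1 and 28.2 CPM in animals labelled Slc7a5-KO, where replicate 3 lay near the top of the WT values and the others near the bottom. Its log2 fold change was -0.13 ± 0.21 (95% interval -0.57 to 0.31, edgeR adjusted p = 0.98). Col3a1 stood at 7.40, 6.64 and 6.26 CPM in WT against 7.99, 4.71 and 10.7 CPM in animals labelled Slc7a5-KO. The WT animals lay inside the range of the Slc7a5-KO animals. The coefficient of variation was 8.56% in WT and 38.6% in Slc7a5-KO. The log2 fold change of Col3a1 was 0.20 ± 0.33 (95% interval -0.49 to 0.88, edgeR adjusted p = 0.98).

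**Figure D1:**
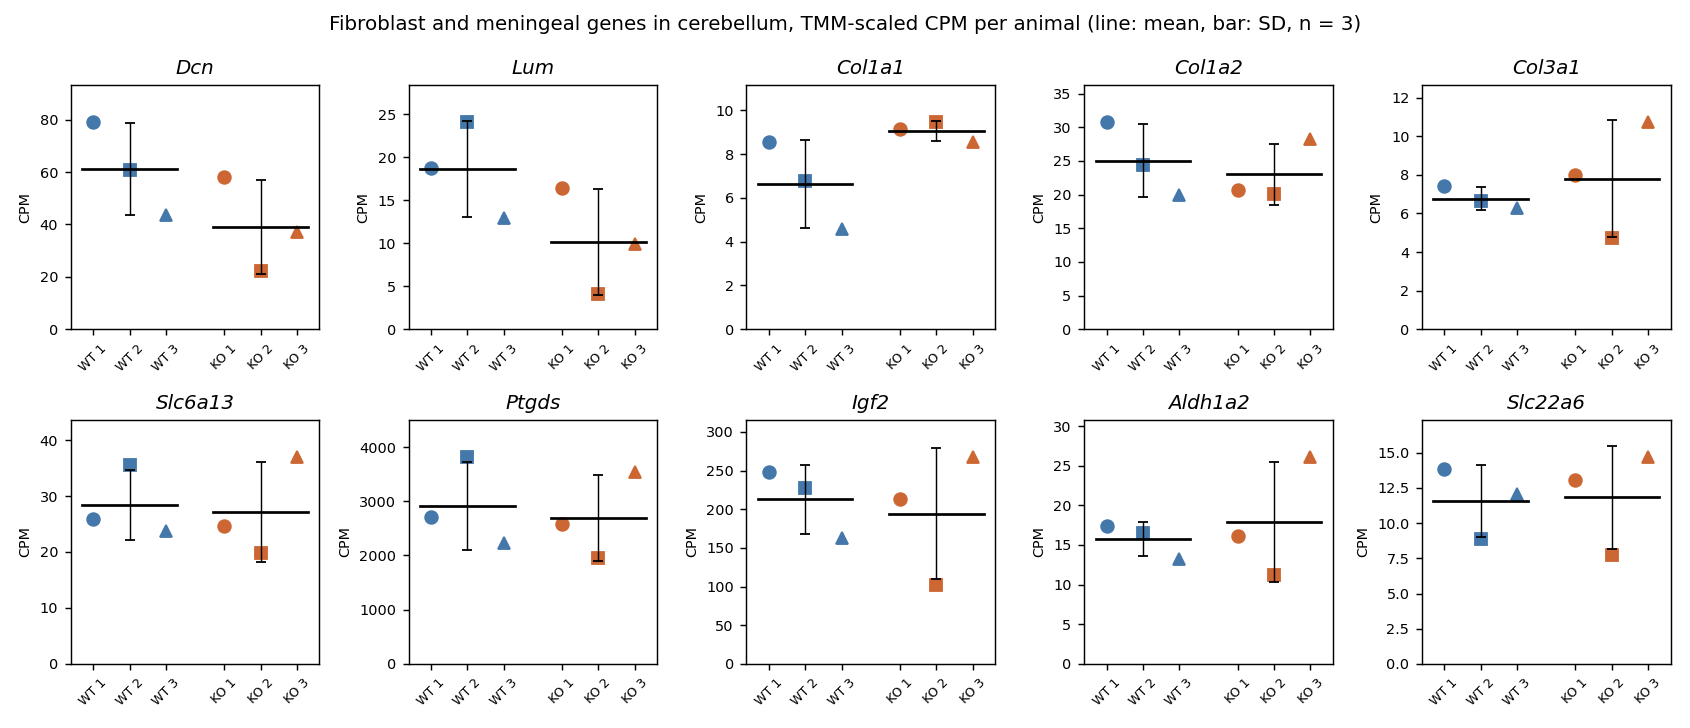
TMM-scaled counts per M reads of each of the 10 genes in each animal (vertical axes from 0; WT in blue, libraries labelled Slc7a5-KO, written KO, in orange; line and bar, mean and SD of 3 animals). Slc7a5-KO replicate 2 is the lowest animal in 8 of the 10 panels and the highest in that of Col1a1, and no panel separates the groups.

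Of the secreted factors, Igf2 (chromosome 7, 142650766 to 142666816, minus strand) encodes a growth factor that is expressed from the paternal allele in most tissues. Igf2 stood at 248, 227 and 163 CPM in WT against 213, 101 and 268 CPM in animals labelled Slc7a5-KO. The lowest and the highest animal were both labelled Slc7a5-KO, and the 95% interval of its log2 fold change, -0.13 ± 0.40, ran from -1.14 to 0.87 (edgeR adjusted p = 0.99). Opposite-strand reads over Igf2 were at most 12 in any library, where Igf2os overlaps it. The annotation used here also places a gene that is not in the count tables over its exons on the same strand.

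Ptgds (chromosome 2, 25466709 to 25470046, minus strand) stood at 2706, 3818 and 2230 CPM in WT against 2577, 1961 and 3534 CPM in animals labelled Slc7a5-KO. WT replicate 2 and Slc7a5-KO replicate 3 were the high animals, and the groups interleaved. The log2 fold change was -0.12 ± 0.22 (95% interval -0.59 to 0.36, edgeR adjusted p = 0.98). Oligodendrocytes also make Ptgds. The summed level of 10 oligodendrocyte markers was highest in Slc7a5-KO replicate 2 (7568 CPM), where Ptgds was lowest. That sum was lowest in WT replicate 2 (4329 CPM), where Ptgds was highest. The part of oligodendrocytes in the Ptgds values was not tested.

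Aldh1a2 (chromosome 9, 71215789 to 71296243, plus strand) encodes the retinaldehyde dehydrogenase by which meningeal fibroblasts make retinoic acid, a diffusible signal to the tissue below. It stood at 17.4, 16.6 and 13.3 CPM in WT against 16.2, 11.2 and 26.1 CPM in animals labelled Slc7a5-KO. The high value of Slc7a5-KO replicate 3 and the low value of replicate 2 lay on either side of all WT animals. The log2 fold change was 0.17 ± 0.27 (95% interval -0.39 to 0.73, edgeR adjusted p = 0.98).

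Of the transporters, Slc6a13 (chromosome 6, 121300227 to 121337733, plus strand) stood at 25.9, 35.5 and 23.8 CPM in WT against 24.7, 19.7 and 37.0 CPM in animals labelled Slc7a5-KO. Its high animals were those of Ptgds, and the log2 fold change was -0.07 ± 0.23 (95% interval -0.55 to 0.40, edgeR adjusted p = 0.99). Slc22a6 (chromosome 19, 8618039 to 8628299, plus strand), which encodes the organic anion transporter OAT1, stood at 13.8, 8.84 and 12.1 CPM in WT against 13.1, 7.74 and 14.7 CPM in animals labelled Slc7a5-KO. The low animals of Slc22a6 were replicate 2 of each group. The log2 fold change was 0.03 ± 0.28 (95% interval -0.56 to 0.61, edgeR adjusted p = 1.00).

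**Figure D2:**
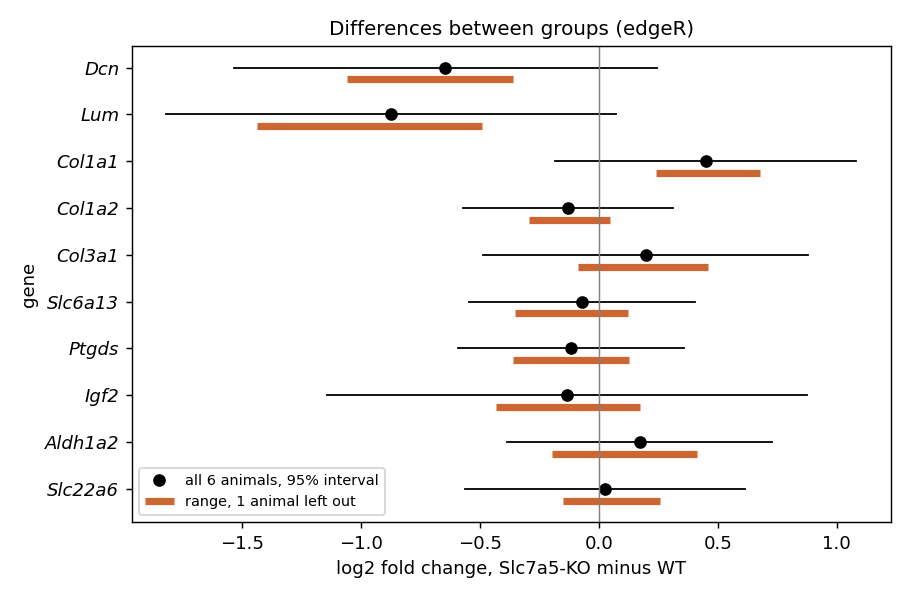
Log2 fold change (Slc7a5-KO minus WT, edgeR) of each gene with its 95% interval in black, and the range of the value when 1 animal was left out in orange. All 10 intervals include 0, and the orange bars of Dcn, Lum and Col1a1 stay on their side of 0.

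With 3 animals a group the intervals were wide. For Col1a2, Col3a1, Slc6a13, Ptgds, Aldh1a2 and Slc22a6 a change of 2-fold either way lay outside the 95% interval. A fall of 2-fold lay inside it for Dcn, Lum and Igf2, as did a rise of 2-fold for Col1a1. Over the 14 alternative analyses and leave-outs, Dcn and Lum were lower and Col1a1 higher in animals labelled Slc7a5-KO in every one, and the other 7 genes changed sign in at least 1. No alternative called any of the 10, and the smallest adjusted p was 0.13, for Lum without the low-count filter. Within females (1 WT and 2 Slc7a5-KO animals) the difference of mean log2 CPM was -0.39 for Dcn and -0.91 for Lum. Within males (2 WT animals against Slc7a5-KO replicate 2 alone) it was -1.41 for Dcn and -1.93 for Lum, and with 1 animal in an arm neither was tested. Col1a2, Slc6a13 and Ptgds were also lower within both sexes, and Col1a1 was higher. The direction differed for Col3a1 (0.48 in females and -0.53 in males), Igf2 (0.07 and -0.99), Aldh1a2 (0.31 and -0.43) and Slc22a6 (0.64 and -0.73). With a sex term in the fit of all 6 animals the value was -0.90 for Dcn and -1.39 for Lum (edgeR adjusted p = 0.59 and 0.16). For Ptgds it was -0.33 (edgeR adjusted p = 0.57).

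The animals fell in a like order for many of the genes. Slc7a5-KO replicate 2 was the lowest animal for 8 of the 10 genes, against 14.8% of all genes tested, and Slc7a5-KO replicate 3 the highest for 5 of the 10, against 19.9%. The score of the 10 genes, the mean of log2 CPM centred on each gene, was 0.26, 0.19 and -0.21 in WT replicates 1 to 3 and 0.11, -0.61 and 0.27 in animals labelled Slc7a5-KO. Without Slc7a5-KO replicate 2 the median log2 fold change of the 10 was 0.14, with 7 genes above 0. Without replicate 3 it was -0.32, with 1 gene above 0. It was also just above 0 without WT replicate 1 or WT replicate 2 (0.02 in each case), so its sign rested on single animals of either group.

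The low values in Slc7a5-KO replicate 2 were uneven. Relative to the mean of the other 5 animals, Lum stood at 24.6% there, Dcn at 39.6% and Igf2 at 45.3%. Col3a1, Slc22a6, Aldh1a2, Ptgds and Slc6a13 stood at 60.3% to 67.2%. Col1a2 stood at 81.2%, where WT replicate 3 was slightly lower, and Col1a1 at 126%, its highest value. Choroid plexus markers were far lower in the same library: Ttr, the transthyretin gene of choroid plexus epithelium, stood at 15.5 CPM against 2158 to 5317 CPM in the others, and Kcne2 was at 0 reads. All 14 choroid plexus genes were lowest in this animal. In the remaining 5 animals their summed level was 5393, 5880 and 2642 CPM in WT replicates 1 to 3. In Slc7a5-KO replicates 1 and 3 it was 2449 and 4994 CPM. WT replicate 3 had the lowest score of the 10 fibroblast genes among those 5, at -0.21. Slc7a5-KO replicate 1, with the lowest choroid plexus sum of the 5, had a fibroblast score of 0.11. The part of choroid plexus tissue in the fibroblast values was not tested.

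**Figure D3:**
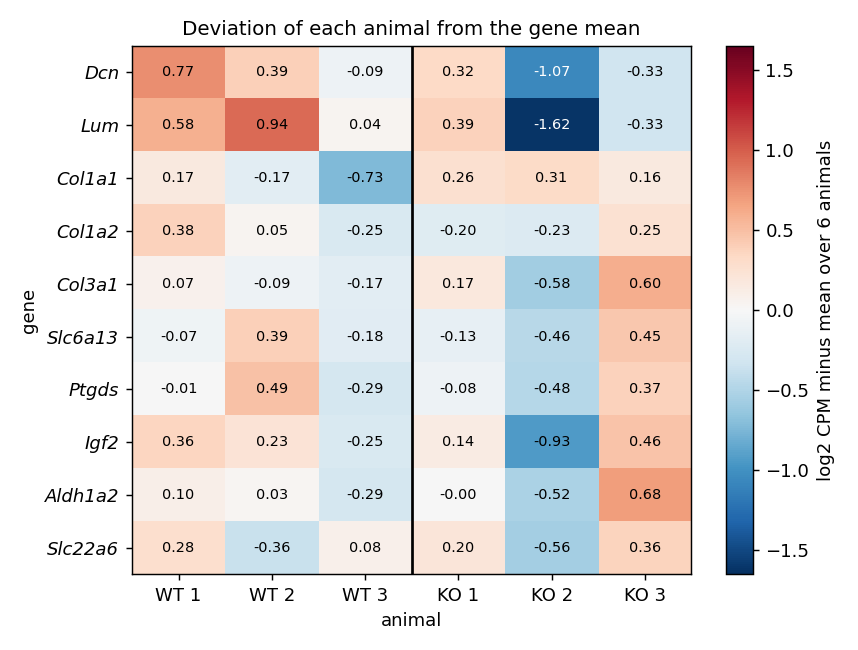
Log2 CPM of each gene (rows) in each animal (columns; KO, labelled Slc7a5-KO) minus the mean of that gene over the 6 animals. The column of Slc7a5-KO replicate 2 is negative for every gene but Col1a1, from -0.23 for Col1a2 to -1.62 for Lum.

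Some of the genes moved almost in step across animals. Over the 45 pairs of the 10 genes, the likeness of log2 CPM over the 6 libraries (Pearson r, as a description) had a median of 0.54. The closest pair over 6 libraries was Slc6a13 with Ptgds (r = 0.98), then Col3a1 with Aldh1a2 (0.96) and Dcn with Lum (0.94). The 9 pairs with Col1a1 had r from -0.31 to 0.28, and the 36 pairs without it from 0.26 to 0.98. All of these values share the same 6 libraries, and much of this rested on Slc7a5-KO replicate 2. Without it, over 5 libraries, r was 0.96 for Slc6a13 with Ptgds, 0.94 for Col3a1 with Aldh1a2 and 0.83 for Dcn with Lum. The pairs with Col1a1 then ran from 0.07 to 0.83 and those without it from -0.72 to 0.96, so the low likeness of Col1a1 to the other genes was not seen without that library.

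The sequences upstream of the start are shown for the closest pairs that have an entry in the RefSeq promoter table (GRCm38.p6), since a reader may want to compare what lies before genes with parallel levels. Of the 10 genes, 7 matched an entry, and Dcn, Lum and Col1a1 did not. Each line gives the 250 bases before the RefSeq start, 5′ to 3′ on the strand of the gene, from chr2:25469750-25469999 for Ptgds (minus strand), chr6:121300038-121300287 for Slc6a13 (plus), chr1:45311288-45311537 for Col3a1 (plus) and chr9:71215539-71215788 for Aldh1a2 (plus). These starts need not be those of the gene spans given above, which come from GENCODE: the window of Ptgds lies wholly inside its gene span, and the last 61 bases of that of Slc6a13 lie inside its own. Capitals mark matches, on either strand, to the TATA box TATAAA, the CCAAT box CCAAT, the GC box GGGCGG, the forkhead motif GTAAACA, the AP-1 motif TGANTCA or the nuclear receptor half-site AGGTCA.
Ptgds: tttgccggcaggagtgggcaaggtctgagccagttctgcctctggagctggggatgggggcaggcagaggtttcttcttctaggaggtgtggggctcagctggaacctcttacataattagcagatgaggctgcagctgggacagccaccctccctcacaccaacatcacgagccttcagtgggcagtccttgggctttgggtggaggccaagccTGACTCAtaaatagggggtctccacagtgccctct
Slc6a13: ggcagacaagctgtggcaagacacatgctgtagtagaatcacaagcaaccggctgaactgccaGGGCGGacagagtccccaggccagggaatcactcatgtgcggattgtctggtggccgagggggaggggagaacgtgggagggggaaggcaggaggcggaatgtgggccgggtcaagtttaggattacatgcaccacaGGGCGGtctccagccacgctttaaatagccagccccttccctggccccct
Col3a1: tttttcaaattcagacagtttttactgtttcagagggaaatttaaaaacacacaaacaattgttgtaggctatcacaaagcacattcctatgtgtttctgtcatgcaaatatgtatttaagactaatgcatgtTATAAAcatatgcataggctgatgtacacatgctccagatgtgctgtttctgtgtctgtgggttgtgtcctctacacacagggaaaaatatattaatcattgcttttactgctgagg
Aldh1a2: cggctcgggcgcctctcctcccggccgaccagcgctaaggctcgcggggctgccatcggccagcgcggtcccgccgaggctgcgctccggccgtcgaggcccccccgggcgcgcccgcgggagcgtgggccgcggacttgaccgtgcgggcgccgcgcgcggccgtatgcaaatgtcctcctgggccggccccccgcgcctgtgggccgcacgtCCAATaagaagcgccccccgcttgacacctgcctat

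None of the motifs searched was shared within either pair in these windows. Only exact matches to the letters given were sought, and other sequence in common was not examined. Ptgds had an AP-1 match 35 to 29 bases before its start, a motif held by 6.75% of the 32851 windows of this length in the table. Slc6a13 had 2 GC boxes (32.7% of windows), at 187 to 182 and 50 to 45 bases before the RefSeq start, of which the nearer lies within the GENCODE gene span. Col3a1 had a TATAAA match 117 to 112 bases before its start (12.4% of windows), and Aldh1a2 a CCAAT box at 36 to 32 bases (33.8%). In base composition Ptgds and Slc6a13 were close, with 58.4% and 60.8% G and C, while Col3a1 had 35.2% and Aldh1a2 77.6%, against a median of 52.4% over all windows. No window of these 4 genes held GTAAACA (3.17% of windows) or AGGTCA (14.0%). A match is a run of letters, not a bound site.

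Ratios of reads between 2 genes in the same library do not depend on library scaling, and 5 such ratios were examined after the values were seen. The ratio of Ptgds to Slc6a13 reads was 105, 108 and 93.6 in WT and 104, 99.4 and 95.6 in animals labelled Slc7a5-KO, while each gene varied 1.95-fold and 1.87-fold across animals. The ratio of Aldh1a2 to Col3a1 also ranged less than either gene, at 2.35, 2.49 and 2.12 in WT and 2.03, 2.39 and 2.43 in animals labelled Slc7a5-KO. Dcn to Lum ranged more widely, from 2.52 in WT replicate 2 to 5.47 in Slc7a5-KO replicate 2. Col3a1 to Col1a1 was 0.86, 0.98 and 1.37 in WT and 0.87, 0.50 and 1.26 in animals labelled Slc7a5-KO, so the groups overlapped.

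The ratio of the type I collagen chains was the 1 of the 5 whose groups did not overlap. Reads of Col1a2 over Col1a1 were 3.59, 3.62 and 4.37 in WT and 2.25, 2.13 and 3.31 in animals labelled Slc7a5-KO. The nearest values of the groups were 3.31 in Slc7a5-KO replicate 3 and 3.59 in WT replicate 1. This ratio was singled out after its values were seen and was not tested. Of all single genes tested, 11.5% separated the groups without overlap, and the share among ratios was not computed. Neither gene of it was called, and Col1a1 in Slc7a5-KO replicate 3 rested on 116 reads.

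**Figure D4:**
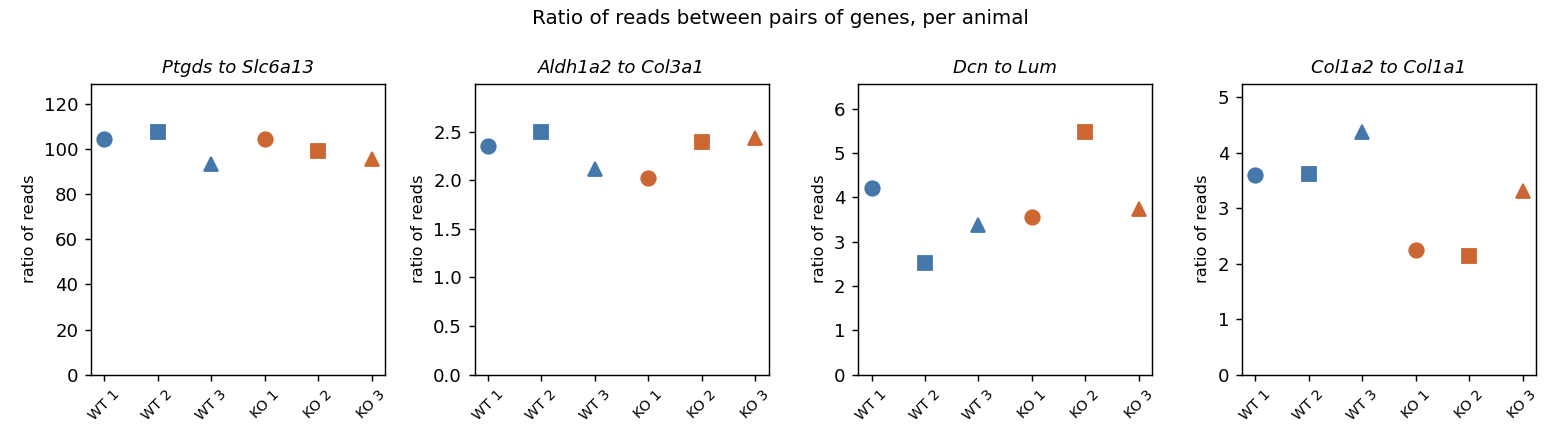
Ratio of reads between 4 pairs of genes in each animal (vertical axes from 0; WT in blue, libraries labelled Slc7a5-KO, written KO, in orange). Ptgds to Slc6a13 stays between 93.6 and 108, and Col1a2 to Col1a1 is at most 3.31 in the Slc7a5-KO animals and at least 3.59 in WT.

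Other genes with the pattern of the 10 across animals were sought among 14684 genes with a mean of at least 1 CPM. The 8 with the highest Pearson r to the score over 6 libraries were Sptssa (r = 0.997), Serinc2 and Slc6a20a (0.98), Mcur1 and Cfap126 (0.98), and Spag16, Ecm2 and Zfp185 (0.97). In all, 45 of the 14684 genes reached 0.95. How many would do so over 6 libraries with no relation to the score was not tested. Without Slc7a5-KO replicate 2 the r of these 8 genes to the score ran from 0.90 for Ecm2 to 0.997 for Sptssa. The 8 were picked for high r over libraries that include the ones left, so high values were largely set by that choice. Sptssa, which encodes a small subunit of serine palmitoyltransferase, was nearly flat, at 20.1 CPM in Slc7a5-KO replicate 2 and 23.4 to 26.8 CPM in the others. Slc6a20a, a carrier of proline and related imino acids that was also on the list of meningeal transporters, ranged 3.50-fold, from 10.1 CPM in Slc7a5-KO replicate 2 to 35.4 CPM in replicate 3. Ecm2, an extracellular matrix protein, ranged from 7.66 to 17.2 CPM, and Cfap126 and Spag16, genes of motile cilia, from 4.75 to 12.6 and from 3.03 to 9.89 CPM.

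Further genes of fibroblasts and of the pathways of the 10 were read from lists chosen with earlier results of these data known. No gene on them was called in the main edgeR fit, which had the low-count filter and no sex term. Of the 14 lists, the medians of fibroblast identity, choroid plexus, endothelial, border macrophage and neuron genes kept their sign under library totals and when any 1 library was left out, and those of the other 9 lists did not. By library totals alone the medians of matrix (0.026), transporter (0.035), insulin-like growth factor (0.028), oligodendrocyte (0.0066) and blood (0.0033) genes were above 0. Of 24 matrix genes, 11 were above 0 and 13 below, with a median log2 fold change of -0.01. Fbn1, the microfibril protein fibrillin-1, stood at 9.89, 6.86 and 7.13 CPM in WT against 11.3, 11.7 and 21.5 CPM in animals labelled Slc7a5-KO (log2 0.89 ± 0.29, edgeR adjusted p = 0.59). Ogn, osteoglycin, a proteoglycan of the family of Dcn and Lum, stood at 23.7, 25.8 and 20.5 CPM in WT against 22.4, 8.04 and 12.4 CPM in animals labelled Slc7a5-KO. The order of its Slc7a5-KO animals was that of Dcn and Lum, with replicate 2 lowest (log2 -0.70 ± 0.29, edgeR adjusted p = 0.75, and log2 -0.41 without replicate 2).

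Of 14 genes that process or fold collagen, 7 were above 0 and 7 below (median -0.05). Bmp1, which cleaves the C-propeptide of procollagens, was at -0.36 ± 0.14 on the log2 scale (edgeR adjusted p = 0.69) and Sparc, a collagen-binding matricellular protein, 0.24 ± 0.15 (adjusted p = 0.88). Of 15 fibroblast identity genes tested of 16 listed, 5 were above 0 (median -0.18, and -0.02 without Slc7a5-KO replicate 2). Prrx1, a transcription factor of mesenchyme, had -0.37 ± 0.21 (edgeR adjusted p = 0.85) and Gjb2, a connexin of the leptomeninges, -0.33 ± 0.25 (adjusted p = 0.93). Pdgfra, a receptor shared by fibroblasts and oligodendrocyte precursors, ranged from 21.2 to 38.9 CPM, and Foxc1, a regulator of meningeal development, from 2.04 to 6.68 CPM. Tcf21 had too few reads to be tested.

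Of 7 meningeal transporters tested of 8 listed, 2 were above 0 (median -0.0062), and 5 of the 7 were lowest in Slc7a5-KO replicate 2, without which the median was 0.27. Slc47a1, an exporter of organic cations, had -0.45 ± 0.34 (edgeR adjusted p = 0.93) and Slc13a3, a dicarboxylate carrier, -0.24 ± 0.19 (adjusted p = 0.93). Slc13a4, a sulfate carrier chosen after its values were seen, ranged from 9.08 CPM in Slc7a5-KO replicate 2 to 51.2 CPM in replicate 3. Of the 10 genes, Col3a1, Slc6a13, Igf2, Aldh1a2 and Slc22a6 had the same lowest and highest animals, and the other 5 did not. Slc13a3 was instead lowest in Slc7a5-KO replicate 3, at 21.7 CPM, with 30.6 CPM in replicate 2.

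Around Aldh1a2, 17 of 19 other retinoid genes were tested, with 8 above 0 and 9 below (median -0.06, and 0.05 without Slc7a5-KO replicate 2). Aldh1a1, another retinaldehyde dehydrogenase, had -0.27 ± 0.14 (edgeR adjusted p = 0.83). Cyp26b1, which degrades retinoic acid, stood at 13.6 to 23.1 CPM with no separation of the groups, and Cyp26a1 had 0 reads in all libraries.

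Around Igf2, 12 of 13 genes of insulin-like growth factor signalling were tested, with 6 above 0 and 6 below (median -0.02). Igf2bp2, an RNA-binding protein of Igf2 transcripts, was at or under 1.76 CPM in every library (log2 2.67 ± 1.45, edgeR adjusted p = 0.84), and Igfbp6, a binding protein that prefers IGF2, had -0.34 ± 0.21 (adjusted p = 0.87). H19, the maternally expressed neighbour of Igf2, was low, at 0.65, 2.02 and 0.87 CPM in WT against 4.02, 0.78 and 2.87 CPM in animals labelled Slc7a5-KO. Around Ptgds, 9 of 10 prostaglandin genes were tested, with 4 above 0 (median -0.02, and -0.19 without Slc7a5-KO replicate 2). Ptges, the inducible prostaglandin E synthase, stood at 4.35, 2.27 and 3.11 CPM in WT against 5.29, 5.42 and 7.06 CPM in animals labelled Slc7a5-KO (log2 0.86 ± 0.38, edgeR adjusted p = 0.76). Ptgs2, the inducible cyclooxygenase, had 0.96 ± 0.63 (adjusted p = 0.89).

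Markers of the other cell types in or around the vessels and membranes are given as levels. The 14 choroid plexus genes were all below 0, with a median of -0.85, which was -0.36 without Slc7a5-KO replicate 2 and -1.49 without replicate 3. Calml4 had -1.59 ± 0.40 (edgeR adjusted p = 0.29). Without the low-count filter Calml4 was called (edgeR adjusted p = 0.017), and over all alternatives its adjusted p reached 0.94. Prlr, the prolactin receptor, had -0.79 ± 0.54 (edgeR adjusted p = 0.93), and -0.43 without Slc7a5-KO replicate 2. The 19 endothelial genes had a median of 0.16 with 11 above 0, which ran from 0.04 without Slc7a5-KO replicate 3 to 0.23 without WT replicate 1, and their summed level was 630 to 677 CPM in WT against 575 to 689 CPM in animals labelled Slc7a5-KO. Itm2a had -0.43 ± 0.14 (edgeR adjusted p = 0.59) and Kdr, a receptor for vascular endothelial growth factor, 0.63 ± 0.31 (adjusted p = 0.81). The 15 genes of smooth muscle and pericytes had a median of 0.05 with 11 above 0, and Pdgfrb had 0.43 ± 0.21 and Cspg4 0.40 ± 0.29 (edgeR adjusted p = 0.81 and 0.92). Endothelial and mural scores in Slc7a5-KO replicate 2, 0.03 and 0.11, were thus not low where the fibroblast score was -0.61. The score of cerebellar neuron genes was also lowest in that library, at -0.44, with 6 of the 8 genes lowest there.

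Border macrophage genes were low, with a summed level of 7.04 to 12.7 CPM in WT against 4.37 to 8.09 CPM in animals labelled Slc7a5-KO. The median of the 6 tested was -0.69. Dropping Slc7a5-KO replicate 1 or 3 gave -0.33 or -0.40, and dropping WT replicate 1 gave -0.34. Cd163 had -1.87 ± 1.30 and Pf4 -1.25 ± 0.97 (edgeR adjusted p = 0.90 and 0.93). Blood genes, 6 tested, had a median of -0.07, with Hbb-bt at -0.56 ± 0.57 and Hba-a2 at 0.20 ± 0.52 (adjusted p = 0.96 and 0.99, both genes with near-identical copies). The 10 oligodendrocyte genes had a median of -0.0095, and of -0.27 without Slc7a5-KO replicate 2. Ermn had -0.37 ± 0.16 and Mal -0.23 ± 0.16 (edgeR adjusted p = 0.75 and 0.90). The 8 neuron genes were all below 0, with a median of -0.22. Dropping WT replicate 1 or 2 gave -0.35 or -0.06, and dropping Slc7a5-KO replicate 1 or 2 gave -0.45 or -0.13. Named by their p-values were Calb1 at -0.55 ± 0.19 and Gabra6 at -0.54 ± 0.26 (edgeR adjusted p = 0.66 and 0.83). Calb1 was called with a sex term (log2 -0.75, edgeR adjusted p = 0.045) and without the low-count filter (-0.56, adjusted p = 0.033), and over all alternatives its adjusted p reached 1.00.

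**Figure D5:**
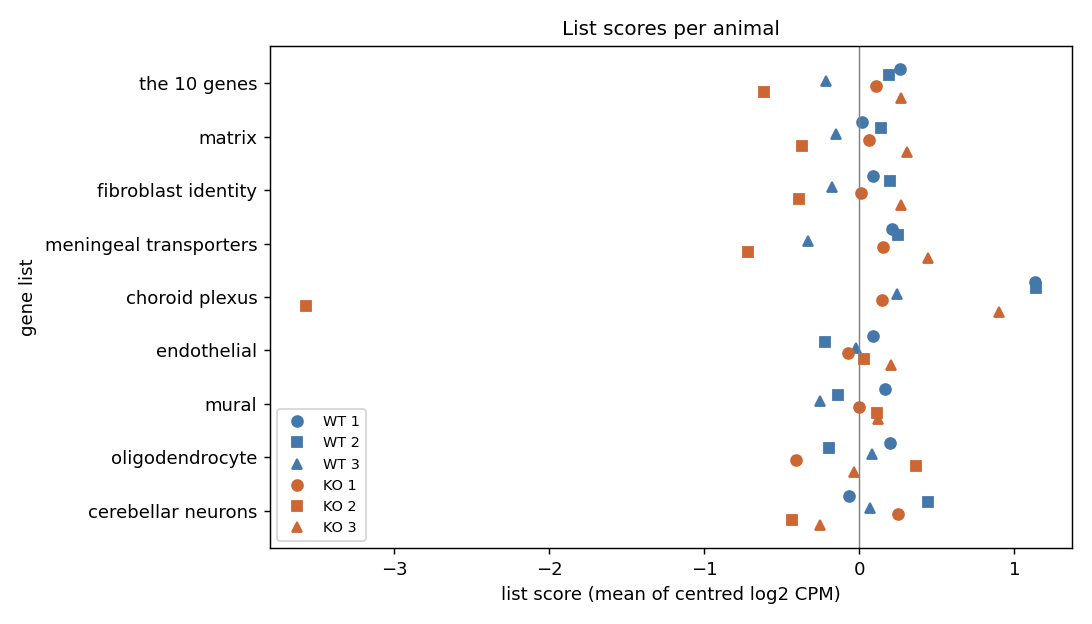
Score of each gene list (mean of log2 CPM centred on each gene, horizontal axis) in each animal, with WT in blue and libraries labelled Slc7a5-KO, written KO, in orange. Slc7a5-KO replicate 2 is at -3.57 for choroid plexus, -0.72 for meningeal transporters and -0.61 for the 10 genes. It is at -0.44 for cerebellar neurons and at 0.03 for endothelial genes.

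The authors' deposited table compared the same libraries and held all 10 genes. In the authors' deposited table no member had a p-value under 0.05, and the adjusted p ran from 0.57 for Col1a1 to 0.99 for Slc22a6. The unshrunken log2 fold change in the authors' deposited table was -0.88 for Lum, -0.65 for Dcn and 0.44 for Col1a1, and no member differed from the edgeR value by more than 0.0088.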

How the data were processed

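Whole cerebellum of 6 mice was profiled, 1 library per animal, and libraries were grouped by the labels' titles (3 WT, 3 Slc7a5-KO). The authors deposited whole-number counts of reads for each gene, made with STAR 2.5.4 on GRCm38 per the submitters' processing notes. Which annotation release was used is not given here. Per the labels' protocols the kit keeps the strand, and the reverse-strand count, 94.8% to 95.8% of stranded reads, was used. Reads of no single gene (19.5% to 22.2%) stayed out, and multimapping reads are listed as 0. The labels mention no molecular identifiers, and PCR copies may be among the counts. The authors' deposited comparison (DESeq2 1.10.1, per the submitters' processing notes) gives, per the file headers, a mean normalised signal, log2 fold changes, the score of a Wald test, and the raw and adjusted p-value.

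Symbols were matched for 46488 of 46983 identifiers, and coordinates and transcript lengths come from GENCODE M21. Counts were filtered with filterByExpr (minimum count 10, total 15), given TMM factors and fitted in edgeR 4.0.16 in R 4.3.3 (quasi-likelihood, robust, 2-sided, Benjamini-Hochberg, threshold 0.05), after a check on simulated data. Values after ± are SD for levels and standard errors for fold changes. A list score is the mean of log2 CPM (prior count 2) centred on each gene. Alternatives were other scalings, no filter, unstranded counts, DESeq2 1.42.0, limma-voom (limma 3.58.1), a replicate block, a sex term and leaving out each library. The likeness of genes without Slc7a5-KO replicate 2 was added after seeing the data. The text names Slc7a5, the 10 members, any called gene or the 2 smallest p of each list, and the 8 genes most like the score. One gene that this rule names is not reported here. Genes outside this rule (Pcp2, Gabra6 as a tissue check, Ttr, Kcne2, Pdgfra, Foxc1, Tcf21, Slc13a4, Cyp26a1, Cyp26b1, H19) were chosen after their values were seen. The members and lists were chosen with earlier results of these data known.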

Additional observations from a re-analysis of the deposited data

How the results depend on the processing

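None of the 10 genes was called under any of the 14 alternatives (edgeR, DESeq2 or limma-voom). Of 140 values of single members under the alternatives, 124 kept their direction. Over all genes, the count called went from 8 to 71 without the low-count filter, 46 by DESeq2 and 16 with a sex term, and took values from 3 to 20 as single libraries were dropped. Dropping WT replicate 3 gave 3, dropping WT replicate 1 or Slc7a5-KO replicate 3 gave 5, and dropping Slc7a5-KO replicate 1 or 2 gave 20. Some directions changed: by limma-voom Aldh1a2 was at -0.0067 and Slc22a6 at -0.063. With a sex term Col3a1 was at -0.021, Aldh1a2 at -0.049 and Slc22a6 at -0.047, and by library totals alone Slc6a20a was at 0.035. The cause was not tested. When 1 library was left out, log2 fold changes ran from -0.30 to 0.047 for Col1a2, -0.089 to 0.46 for Col3a1, -0.35 to 0.12 for Slc6a13, -0.36 to 0.13 for Ptgds, -0.43 to 0.17 for Igf2, -0.19 to 0.41 for Aldh1a2 and -0.15 to 0.26 for Slc22a6. They ran from -0.15 to 0.041 for Sptssa, -0.24 to 0.18 for Serinc2, -0.42 to 0.35 for Slc6a20a, -0.56 to 0.12 for Spag16, -0.91 to 0.097 for Hbb-bt and -0.098 to 1.02 for Hba-a2. The blood median ran from -0.28 to 0.80.

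With the replicate number as a replicate block, 0 of the 10 genes and 6 of all genes were called, the median of the 10 was -0.11, and Dcn and Lum had log2 values of -0.71 and -1.01. Same-numbered libraries did not deviate together (r of -0.038, -0.059 and -0.027), 0 of 6 libraries were closest to their own number, and the numbers name animals only. The biological coefficient of variation was 31.6%, and the lowest count of any of the 10 genes was 108 reads.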
